A study of Mus musculus with 20 samples.

Results

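The 6 genes described here handle zinc and related metals in the liver: the metallothioneins Mt1 and Mt2, the zinc-sensing transcription factor Mtf1, the exporters Slc30a1 (ZnT1) and Slc30a10 (ZnT10), and the importer Slc39a14 (ZIP14). They were chosen by name from the 46078 genes of the table of counts, and all 6 were among the 14759 genes with enough counts to be tested. Mt1 and Mt2 were at their lowest in Cse+/- livers on the no-Cys diet and at their highest in Cse+/- livers on the no-Trp diet. The sign of the genotype difference was therefore opposite on the 2 diets: both genes were higher in Cse-/- than in Cse+/- livers without dietary cysteine and lower without dietary tryptophan.

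Metallothioneins are small proteins that bind zinc and copper through the thiols of their many cysteines. When free zinc rises, MTF1 binds metal response elements and switches on Mt1, Mt2 and Slc30a1, whose product carries zinc out of the cell. In liver, metallothionein genes are also known to respond to glucocorticoids, inflammation and oxidants. SLC39A14 brings zinc, manganese and non-transferrin iron into hepatocytes, and SLC30A10 is best known for exporting manganese.

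Poly(A) RNA of 20 livers of male mice was sequenced, each mouse being 1 library. CSE, encoded by Cth, catalyses the last step from methionine to cysteine, and without it food is the main source of cysteine. The Cse+/- groups were fed a control diet (2 mice), a diet without cysteine (no-Cys, 4 mice) or one without tryptophan (no-Trp, 3 mice). The Cse-/- groups were fed no-Cys (4 mice), no-Trp (3 mice) or no-Trp food with BSO (4 mice), which is L-buthionine sulfoximine, an inhibitor of glutathione synthesis. All were at least 9 weeks old, were kept on restricted amounts of food both before and after the shift from a defined control diet, and gave their livers 2 days after it. The deposited labels write WT for the control genotype, which the list of mice gives as heterozygous. The knockout is constitutive, on a 129/C57BL/6 background, and no Cse-/- liver on the control diet was analysed here, so that knockout and diet cannot be told apart from knockout alone.

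The levels of Cth matched the labels, at 88.4 CPM (counts scaled to library size) or more in every Cse+/- liver and 14.4 CPM or less in every Cse-/- liver. Libraries held 11785740 to 57986121 counts on genes, with a median of 15252745. Hepatocyte markers were abundant in all livers, and the summed level of 6 of them was 93092 to 116404 CPM in Cse+/- and 47774 to 77868 CPM in Cse-/- livers on the no-Cys diet. The largest part of the sum was Alb, at 64175 to 87978 and 25507 to 49495 CPM. Apoa1, Ttr and Serpina1c were also lower in Cse-/- livers. Cyp2e1 measured 10671 to 12566 and 9807 to 12749 CPM, and Cps1 1935 to 4159 and 3598 to 5117 CPM. All CPM are scaled with TMM factors, and bulk RNA cannot tell fewer cells of a type from less RNA per cell.

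The coding sequences of Mt1 and Mt2 are shown for their cysteine content. They are printed spliced, 5′ to 3′, from GRCm38 with the GENCODE annotation, and capitals mark cysteine codons (TGC or TGT).
Mt1: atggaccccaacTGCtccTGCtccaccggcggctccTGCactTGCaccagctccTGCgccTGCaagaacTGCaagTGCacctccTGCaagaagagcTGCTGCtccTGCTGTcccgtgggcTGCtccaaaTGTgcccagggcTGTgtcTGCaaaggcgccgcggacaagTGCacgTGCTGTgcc
Mt2: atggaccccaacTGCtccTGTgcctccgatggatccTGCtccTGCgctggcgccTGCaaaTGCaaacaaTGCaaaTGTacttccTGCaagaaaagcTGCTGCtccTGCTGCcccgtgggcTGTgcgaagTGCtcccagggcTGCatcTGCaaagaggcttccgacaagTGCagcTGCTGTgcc
The first lies on the plus strand between chr8:94179311-94180190 and the second, upstream of it on the same strand, between chr8:94172848-94173424. Each has 61 codons before the stop, of which 20, or 32.8%, code for cysteine. The median over 21522 genes was 2.13%, and 49 genes had a higher share. The 2 sequences share 145 of 183 bases (79.2%), and all 20 cysteine codons stand at the same positions. The other 4 members carried 13 (Slc39a14) to 19 (Mtf1) cysteine codons, which is 2.66% to 3.58% of their length.

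MTF1 recognizes the metal response element, whose core was searched as TGCACNC or TGCGCNC on both strands in the 250 bases before the RefSeq start (GRCm38.p6). A window was found by symbol for 5 of the 6 members, and Slc39a14 was not searched. The windows of the metallothioneins and of Slc30a1, the genes that MTF1 is best known to control, are printed 5′ to 3′ on the plus strand, with matches in capitals.
Mt1, chr8:94178839-94179088: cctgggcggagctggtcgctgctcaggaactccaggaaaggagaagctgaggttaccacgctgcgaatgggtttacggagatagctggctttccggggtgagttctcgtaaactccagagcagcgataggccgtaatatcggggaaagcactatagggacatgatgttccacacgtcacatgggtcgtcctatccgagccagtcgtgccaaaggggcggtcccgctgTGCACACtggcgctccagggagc
Mt2, chr8:94172368-94172617: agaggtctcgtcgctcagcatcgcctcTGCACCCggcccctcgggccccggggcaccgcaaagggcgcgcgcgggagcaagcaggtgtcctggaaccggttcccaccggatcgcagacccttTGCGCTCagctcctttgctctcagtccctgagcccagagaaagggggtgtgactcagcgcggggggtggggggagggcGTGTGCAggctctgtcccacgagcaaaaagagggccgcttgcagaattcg
Slc30a1, chr1:191906531-191906780: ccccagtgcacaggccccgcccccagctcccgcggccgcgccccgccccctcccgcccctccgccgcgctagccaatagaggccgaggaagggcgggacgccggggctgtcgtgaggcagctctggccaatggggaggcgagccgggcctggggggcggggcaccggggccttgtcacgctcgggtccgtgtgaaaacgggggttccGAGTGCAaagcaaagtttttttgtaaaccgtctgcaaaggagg
Mt1 had 1 match, Mt2 had 3 and Slc30a1 had 1. Slc30a10 had 3, 2 of which overlap as 1 site read on both strands, and Mtf1 had none. At least 1 match was found in 21.4% of 32851 promoter windows of this length, and 3 or more in 1.26%. The antioxidant response element core TGACNNNGC, the site of NRF2, was found once in the windows of Mt2 and Slc30a1, against 10.2% of all windows with a match. For the metallothioneins the annotated start lies before a TATAAA, at 121 bases for Mt1 and 135 for Mt2, and the annotated leaders held 4 and 3 more metal cores. Such matches describe letters in a window and not bound sites.

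By level per length of exon, the metallothioneins stood far above the rest. Group means of Mt1 ranged from 87.8 to 853 CPM per kb and of Mt2 from 77.9 to 1244, whereas Slc39a14 ranged from 23.9 to 41.0, Slc30a1 from 5.57 to 9.88, Mtf1 from 2.03 to 2.65 and Slc30a10 from 1.24 to 2.99. Mt3 and Mt4, the metallothioneins of brain and stratified epithelia, had 1 count each over all 20 livers. Counts per liver ran from 578 to 40458 for Mt1 and from 79 to 635 for Slc30a10, the least abundant member, so that counting error was small beside the spread between mice for the first gene. Part of the Mt2 sequence (38.7% of its 61-base words) is shared with the antisense transcript Gm45774, and 7.43% to 8.19% of Mtf1, Slc30a1 and Slc30a10 with genes that overlap them, whose reads cannot be told apart without strand. Mt1 and Slc39a14 shared no word with other genes.

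**Figure D1:**
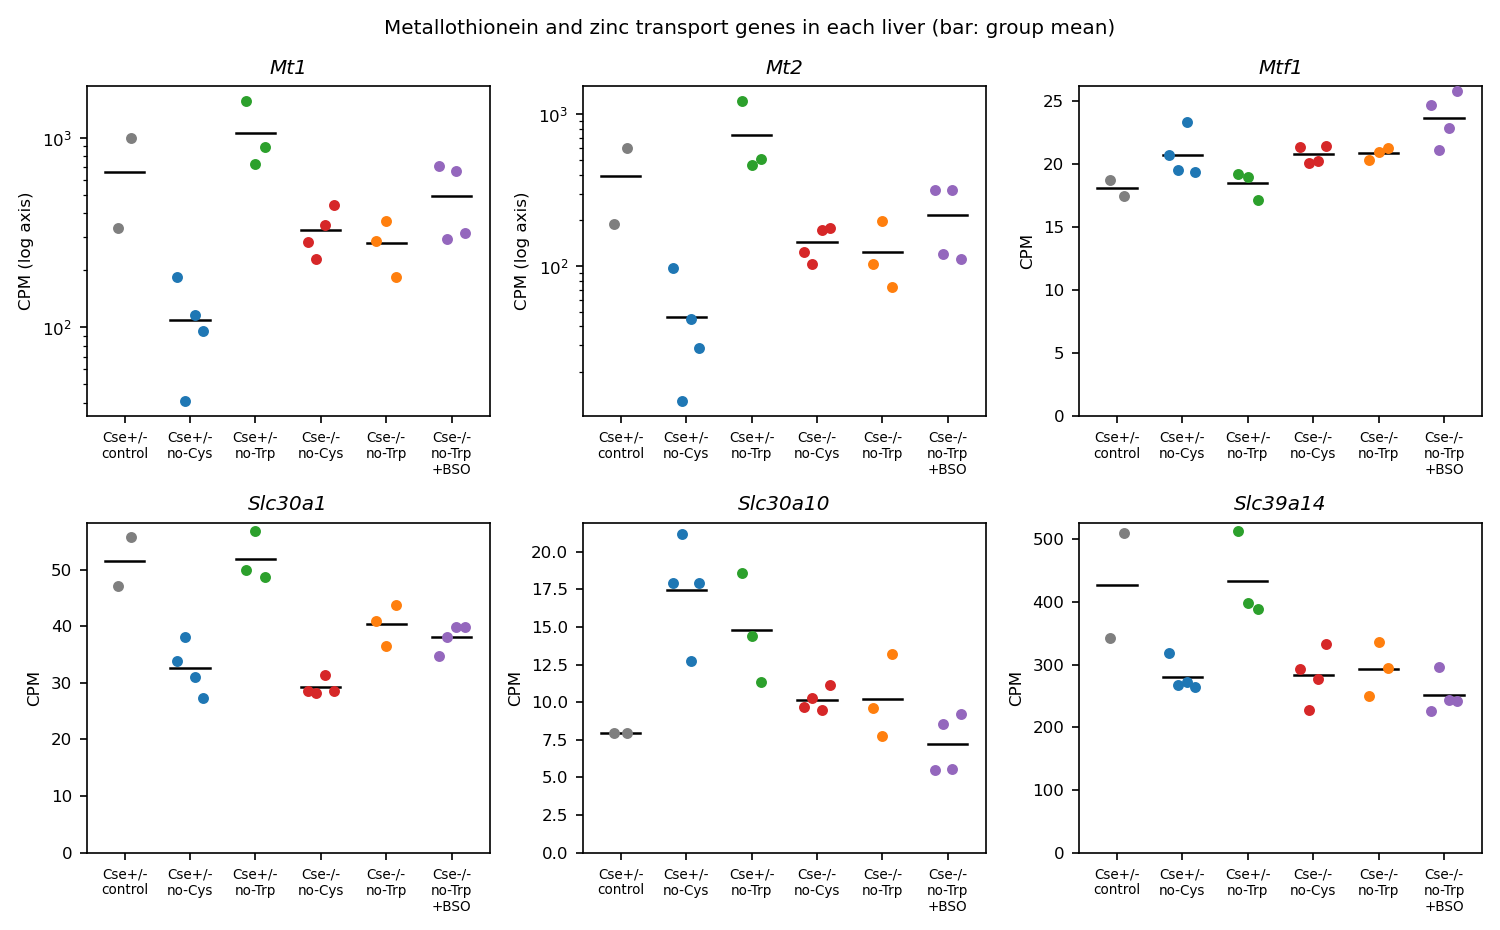
CPM of each member in each of the 20 livers (points) with the group mean (bar), by genotype and diet. The axis is logarithmic for Mt1 and Mt2 and linear from 0 for the others. Mt1 spans 40.8 to 1562 CPM, whereas Mtf1 stays between 17.2 and 25.8 CPM.

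On the no-Cys diet, Cse-/- and Cse+/- livers were compared to ask how the absence of both sources of cysteine differs from the absence of dietary cysteine alone. Mt1 and Mt2 were 2.97-fold and 3.17-fold higher in Cse-/- livers and Slc30a10 was 1.72-fold lower, so that 3 of the 6 members passed the test, in a comparison in which 23.8% of all genes passed. Mt1 measured 185, 40.8, 116 and 95.4 CPM in the 4 Cse+/- livers and 281, 229, 346 and 441 CPM in the 4 Cse-/- livers. The lowest knockout liver lay above the highest heterozygous one. The log2 fold change was 1.57 (SE 0.419, edgeR adjusted p = 0.0104). Mt2 measured 96.5, 12.8, 45.0 and 28.8 CPM in Cse+/- and 124, 103, 174 and 177 CPM in Cse-/- livers, again without overlap, with a log2 fold change of 1.66 (SE 0.532, edgeR adjusted p = 0.0287). Mouse av02 was the lowest of all 20 for both genes, and av01 the highest of its group. Leaving out any 1 of the 8 livers kept Mt1 past the threshold (log2 fold change 1.29 to 1.95), whereas Mt2 missed it without av02, av03, av04, av07 or av08, with an edgeR adjusted p of up to 0.0800. The log2 fold change of Mt2 ran from 1.35 without av02 to 2.32 without av01.

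Slc30a10, the manganese exporter, was the called member with the lower level in Cse-/- livers. It measured 17.9, 21.2, 12.8 and 17.9 CPM in Cse+/- livers on the no-Cys diet and 9.68, 10.3, 9.49 and 11.1 CPM in Cse-/- livers. The groups did not overlap, and the log2 fold change was -0.78 (SE 0.200, edgeR adjusted p = 0.00768), which held when any 1 liver was left out. Over all genes, 23.2% had groups without overlap in this comparison. The regulator Mtf1 measured 20.7, 19.5, 23.3 and 19.4 CPM in Cse+/- and 21.4, 20.1, 20.2 and 21.5 CPM in Cse-/- livers, with a log2 difference whose 95% interval ran from -0.17 to 0.18. Slc30a1, the exporter under MTF1, measured 33.8, 38.0, 31.1 and 27.2 CPM in Cse+/- and 28.6, 28.2, 31.5 and 28.6 CPM in Cse-/- livers, a log2 difference of -0.16 (95% interval -0.36 to 0.05) that did not pass. Slc39a14 measured 318, 267, 273 and 265 CPM against 293, 227, 278 and 333 CPM, with an interval of -0.29 to 0.31. Mt1 and Mt2 were thus higher in Cse-/- livers without a called difference in the RNA of Mtf1 or Slc30a1, and MTF1 activity was not measured. Their means in these Cse-/- livers (324 and 144 CPM) lay below those of the 2 Cse+/- livers on the control diet (663 and 393 CPM).

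On the no-Trp diet the same 2 genotypes differed the other way. Mt1 was 3.82-fold and Mt2 5.90-fold lower in Cse-/- livers, and these 2 of the 6 members passed, against 2.64% of all genes. Mt1 measured 1562, 730 and 896 CPM in Cse+/- livers and 287, 364 and 183 CPM in Cse-/- livers, with a log2 fold change of -1.94 (SE 0.487, edgeR adjusted p = 0.0391). Mt2 measured 1225, 465 and 506 CPM in Cse+/- and 103, 197 and 72.5 CPM in Cse-/- livers, a log2 fold change of -2.56 (SE 0.625, edgeR adjusted p = 0.0343). Neither gene overlapped between the groups, and 19.6% of all genes did not. Mouse av17 was the highest of the 20 for both. With 3 livers a group the calls were fragile: without any 1 of the 6 (av14, av15, av16, av17, av19 or av20) Mt1 no longer passed, at an edgeR adjusted p of 0.0552 to 0.115 and a log2 fold change of -2.18 to -1.55. Mt2 passed without av20 alone, and its log2 fold change ran from -3.06 to -1.97.

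The transporters were also lower in Cse-/- livers on this diet, without passing the test. Slc30a1 measured 50.0, 56.8 and 48.6 CPM in Cse+/- and 41.0, 36.5 and 43.7 CPM in Cse-/- livers, without overlap (log2 fold change -0.36, edgeR adjusted p = 0.0881). Slc39a14 measured 512, 398 and 388 CPM against 249, 336 and 294 CPM, also without overlap (log2 fold change -0.56, edgeR adjusted p = 0.0718). DESeq2 placed Slc39a14 past the threshold here, at an adjusted p of 0.0247. Slc30a10 measured 18.6, 14.4 and 11.4 CPM against 9.62, 7.73 and 13.2 CPM, a log2 difference of -0.52 (edgeR adjusted p = 0.217). Mtf1 measured 19.3, 19.0 and 17.2 CPM in Cse+/- and 20.4, 20.9 and 21.3 CPM in Cse-/- livers, a log2 difference of 0.17 with an edgeR adjusted p of 0.333.

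The difference between the 2 genotype effects was tested as an interaction over the 14 livers of these 4 groups. For Mt1 the genotype effect on the no-Cys diet exceeded that on the no-Trp diet by 3.50 on the log2 scale (SE 0.643, edgeR adjusted p = 0.00445), and for Mt2 by 4.22 (SE 0.820, edgeR adjusted p = 0.00633). These were 2 of 6 members, against 4.36% of all genes. The interaction was negative and called for 2 of 6 hepatocyte markers and 1 of 5 red cell genes (list medians -0.33 and -1.12). It was positive and called for 4 of 7 NRF2 targets (list median 1.09) and 1 of 13 acute phase genes (list median 0.31). The part of these genes was not tested. Mt1 and Mt2 passed when any 1 of the 14 livers was left out, with values of 3.12 to 3.88 for Mt1 and 3.64 to 4.89 for Mt2. Slc39a14 differed by 0.57 in the same direction (edgeR adjusted p = 0.145), and Slc30a10, Slc30a1 and Mtf1 by -0.26, 0.20 and -0.17, none past the threshold.

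**Figure D2:**
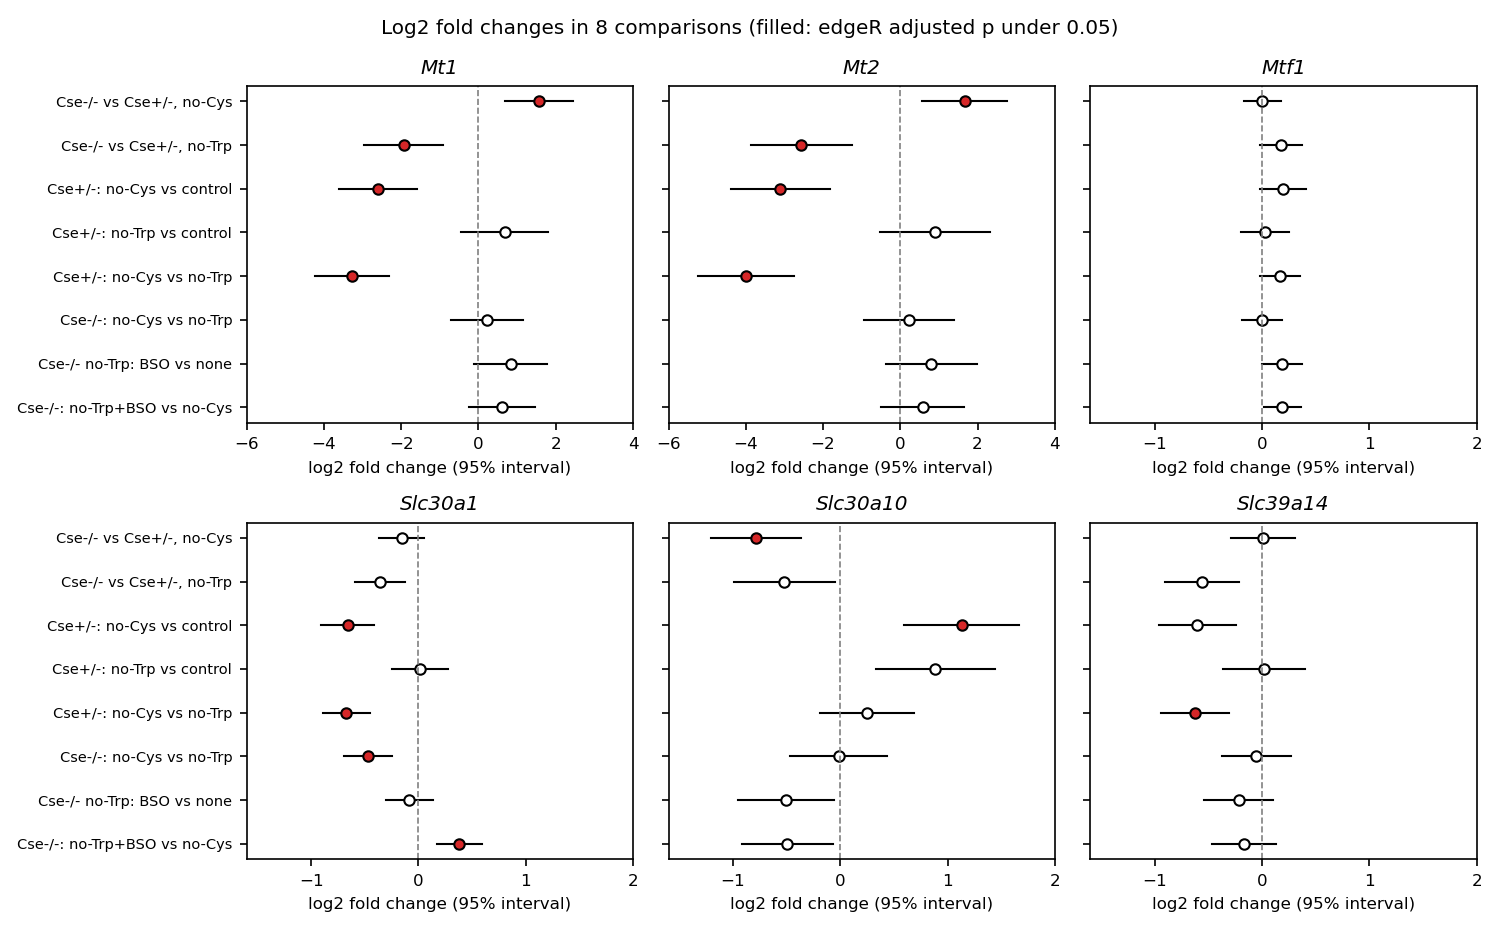
Log2 fold change of each member with its 95% interval in 8 comparisons, filled where the edgeR adjusted p was under 0.05. Mt1 and Mt2 have a wider axis than the others. The genotype effect lies at 1.57 (Mt1) and 1.66 (Mt2) on the no-Cys diet and at -1.94 and -2.56 on the no-Trp diet.

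Diets were then compared within Cse+/- mice. On the no-Cys diet Mt1 was 6.06-fold, Mt2 8.62-fold and Slc30a1 1.58-fold lower than on the control diet, and Slc30a10 was 2.19-fold higher. These 4 of 6 members passed, against 2.18% of all genes. The 2 control livers measured 335 and 992 CPM for Mt1 and 188 and 598 CPM for Mt2, above all 4 livers on the no-Cys diet, whose highest values were 185 and 96.5 CPM. Over all genes, 25.6% did not overlap between these groups. Among the cell type markers, 1 of 4 of cholangiocytes was called, and lower, and its part was not tested. The log2 fold changes were -2.60 for Mt1 (SE 0.483, edgeR adjusted p = 0.00780) and -3.11 for Mt2 (SE 0.613, edgeR adjusted p = 0.0123). Slc30a1 measured 47.1 and 55.8 CPM on the control diet, a log2 fold change of -0.66 (SE 0.118, edgeR adjusted p = 0.00648). Slc30a10 measured 7.97 and 7.94 CPM, below the lowest no-Cys liver at 12.8 CPM, a log2 fold change of 1.13 (SE 0.257, edgeR adjusted p = 0.0233). Slc39a14 measured 342 and 510 CPM, with a log2 difference of -0.60 (edgeR adjusted p = 0.0686), and Mtf1 18.7 and 17.5 CPM, with 0.19 (edgeR adjusted p = 0.355).

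These calls depended on the control livers, of which there were 2. The log2 fold change of Mt1 reached -3.19 without av21 and that of Mt2 reached -3.76 without av01. Without av22 none of the 6 members passed, and the log2 fold changes became -1.62 for Mt1, -2.05 for Mt2 and -0.54 for Slc30a1 at edgeR adjusted p of 0.372, 0.372 and 0.201. The call of Slc30a10 was also lost without av02 or av21, while its fold change stayed between 1.02 and 1.27 on the log2 scale. Without av21, Slc39a14 passed instead, at -0.87 (edgeR adjusted p = 0.0294). With only the groups compared in the fit, Mt1, Mt2 and Slc30a1 missed the threshold, at edgeR adjusted p of 0.0523, 0.0601 and 0.0641.

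The no-Trp diet gave no called member against the control diet in Cse+/- livers, in a comparison in which 0.0474% of all genes passed. The count was 0 by both edgeR and DESeq2, and 1 member, Slc30a10, had an unadjusted edgeR p under 0.05. Its log2 difference was 0.89 (SE 0.264, edgeR adjusted p = 0.276), and all 3 livers on the no-Trp diet (11.4 to 18.6 CPM) were above both control livers, as in the 27.4% of all genes without overlap. Mt1 differed by 0.68 (95% interval -0.44 to 1.80) and Mt2 by 0.90 (-0.52 to 2.31), with overlapping groups. Without av21 these differences became 0.10 and 0.29, and without av22 they became 1.67 and 1.96. Both intervals include 0 and are wide, with 2 control livers that differ from each other.

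The 2 deficient diets were also compared directly in Cse+/- mice, a comparison added after the values had been seen. Mt1 was 9.72-fold and Mt2 16.0-fold lower on the no-Cys than on the no-Trp diet, with log2 fold changes of -3.28 (SE 0.461, edgeR adjusted p = 5.22e-04) and -4.00 (SE 0.596, edgeR adjusted p = 7.63e-04). Slc30a1 fell by 0.67 on the log2 scale (edgeR adjusted p = 0.00108) and Slc39a14 by 0.62 (edgeR adjusted p = 0.0172). The 4 called members compare with 8.04% of all genes. Lower as well were 1 of 5 endothelial markers, 2 of 13 acute phase genes and 2 of 7 NRF2 targets, a list with a median of 0.29 on the log2 scale. The part of these genes was not tested. All called members but Slc39a14, which was lost without av02 or av17, passed without any 1 of the 7 livers. The log2 fold change of Mt1 ran from -3.66 without av01 to -2.89 without av17. That of Mt2 ran from -4.66 to -3.41 without the same livers. The intervals of Slc30a10 (-0.19 to 0.69) and Mtf1 (-0.02 to 0.35) included 0. The comparisons of diets and of genotypes share livers, so that their values are given side by side and not as independent of each other.

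Among Cse-/- livers no difference in the metallothioneins was detected between the missing amino acids. Between the no-Cys and the no-Trp diet, Mt1 differed by 0.22 (95% interval -0.70 to 1.15) and Mt2 by 0.22 (-0.94 to 1.38), with overlapping groups. The zinc exporter Slc30a1 was the single called member, against 10.4% of all genes. It measured 28.6, 28.2, 31.5 and 28.6 CPM without dietary cysteine and 41.0, 36.5 and 43.7 CPM without tryptophan, with no overlap, as in 20% of all genes. The log2 fold change was -0.47 (SE 0.106, edgeR adjusted p = 0.00911) and passed without any 1 of the 7 livers. In this comparison 4 of 6 hepatocyte markers were lower too (summed level 47774 to 77868 against 76071 to 83342 CPM, with Alb as the largest part). Cps1 alone of the 6 had a positive value (0.36 on the log2 scale). Lower as well were 3 of 5 red cell genes (69.1 to 114 against 119 to 184 CPM). The part of these genes in the result was not tested. Slc30a1 was thus lower on the no-Cys than on the no-Trp diet in both genotypes, and the interaction test did not separate the 2 genotypes for it.

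The no-Trp diet with BSO was compared with the same diet without it in Cse-/- mice. Of the 6 members, 0 passed by edgeR or DESeq2, against 0.793% of all genes, and 2 (Mtf1 and Slc30a10) had an unadjusted edgeR p under 0.05. In the same comparison 4 of 7 NRF2 targets were higher (list median 0.57), and their part was not tested. With BSO, Mt1 measured 706, 294, 669 and 313 CPM and Mt2 315, 119, 319 and 111 CPM. Mice av09 and av11 were high and av10 and av12 low for both genes, and the high pair exceeded every Cse-/- liver without BSO. The log2 difference from the no-Trp diet alone was 0.83 for Mt1 (95% interval -0.10 to 1.77, edgeR adjusted p = 0.453) and 0.80 for Mt2 (-0.37 to 1.98). Slc30a10 measured 5.53, 8.57, 5.54 and 9.22 CPM with BSO, and the pair of livers with the higher Mt1 had the lower Slc30a10 (log2 difference -0.51, edgeR adjusted p = 0.296). Mtf1 reached its highest levels here, at 24.7, 21.2, 22.9 and 25.8 CPM (log2 difference 0.18, edgeR adjusted p = 0.383).

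Compared with the no-Cys diet in Cse-/- mice, the no-Trp diet with BSO left 1 member called, Slc30a1, against 2.75% of all genes. It measured 34.7, 38.2, 39.9 and 39.8 CPM with BSO, above the 4 no-Cys livers, and the log2 fold change was 0.38 (SE 0.0988, edgeR adjusted p = 0.0419). It passed without av08 and missed the threshold without av05, av06, av07, av09, av10, av11 or av12, although the value stayed between 0.36 and 0.42. Of the markers, 3 of 6 of hepatocytes (summed level 71429 to 87558 with BSO) and 1 of 4 of cholangiocytes (7.70 to 9.98 CPM with BSO against 4.60 to 8.26) were higher as well, 1 of 6 of stellate cells was lower, and their part was not tested. Mt1 and Mt2 differed by 0.61 and 0.58, with 95% intervals of -0.24 to 1.47 and -0.49 to 1.66. Slc30a10 was lower by -0.49 on the log2 scale, with groups that did not overlap, as in 12.7% of all genes, and an edgeR adjusted p of 0.183.

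Ordered by group mean, Mt1 ran from 1063 ± 440 CPM (SD, n = 3) in Cse+/- livers on the no-Trp diet through 663 ± 465 (n = 2) on the control diet, 495 ± 222 (n = 4) in Cse-/- livers with BSO, 324 ± 91.4 (n = 4) on the no-Cys and 278 ± 90.5 (n = 3) on the no-Trp diet, to 109 ± 59.8 (n = 4) in Cse+/- livers on the no-Cys diet. Mt2 had the same order, from 732 ± 427 to 45.8 ± 36.3 CPM. For both genes every pair of neighbours in this order overlapped. Slc30a1 measured 51.8 ± 4.41 and 51.4 ± 6.12 CPM in Cse+/- livers on the no-Trp and control diets, 40.4 ± 3.61 and 38.1 ± 2.44 in Cse-/- livers on the no-Trp diet without and with BSO, and 32.5 ± 4.54 and 29.2 ± 1.52 in Cse+/- and Cse-/- livers on the no-Cys diet. The one gap between neighbours lay between the control diet and Cse-/- livers on the no-Trp diet. Slc39a14 showed the same gap, with 433 ± 69.1 and 426 ± 119 CPM in Cse+/- livers on the no-Trp and control diets and 252 ± 30.2 to 293 ± 43.2 CPM in the other 4 groups. Slc30a10 was highest in Cse+/- livers on the no-Cys diet (17.4 ± 3.48 CPM) and lowest with BSO (7.22 ± 1.96 CPM), with a gap between Cse-/- livers on the no-Cys diet (10.1 ± 0.741 CPM) and the control diet. Mtf1 was highest with BSO (23.6 ± 2.04 CPM) and lowest on the control diet (18.1 ± 0.894 CPM), with a gap between Cse+/- livers on the no-Cys (20.7 ± 1.82 CPM) and no-Trp diets (18.5 ± 1.13 CPM).

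The 2 metallothioneins moved together from liver to liver. Across the 20 livers the log2 levels of Mt1 and Mt2 had a Pearson r of 0.990, and 0.976 after group means were removed, as a description of livers that share groups. The ratio of the 2 was less constant. Mt2 counts were 30.2% to 52.1% of Mt1 counts in Cse+/- livers on the no-Cys diet and 35.4% to 54.1% over all Cse-/- livers, but 56.2% to 60.3% on the control diet and 56.4% to 78.4% on the no-Trp diet in Cse+/- mice. The range in these last 2 groups lay above that of all other livers. Neither gene followed Mtf1, with r of -0.17 for Mt1 and -0.23 for Mt2 (0.19 and 0.20 within groups). With Slc30a1, r was 0.54 and 0.57, but -0.24 and -0.19 within groups. With Slc39a14 it was 0.56 and 0.63, and 0.48 and 0.51 within groups. With Slc30a10 it was -0.44 and -0.38, and -0.42 for both within groups.

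The genes whose log2 levels were most like those of Mt1 over the 20 livers were Ube2g2 (r = 0.869), Pex26 (0.865), Fkbp5 (0.865), Rhbdf2 (0.839) and Zkscan5 (0.836). For Mt2 they were Fkbp5 (0.873), Ube2g2 (0.871) and Pex26 (0.856). Fkbp5, a co-chaperone of the glucocorticoid receptor and a known glucocorticoid target, kept an r of 0.704 with Mt1 and 0.729 with Mt2 within groups. It was named for that likeness over these same livers, so that the next values follow from the choice and add no support. Fkbp5 fell between the control and the no-Cys diet in Cse+/- livers (log2 fold change -1.07, edgeR adjusted p = 0.0374), and mouse av02, lowest in Mt1, was also lowest in Fkbp5, at 71.2 CPM. Of the 9 glucocorticoid-responsive genes read here, Fkbp5 was the only one called in that comparison, and the list had no common direction: 3 others had positive values (Tsc22d3 0.92, Sgk1 0.42 and Per1 0.32 on the log2 scale) and 5 negative ones. For Slc30a1 the most alike were Rell1 (0.919), Pnrc1 (0.906) and Zfp740 (0.899), and within groups these values were 0.732, 0.426 and 0.218. The most alike were for Slc39a14 Foxq1 (0.875), Taf2 (0.870) and Hip1r (0.867), and for Mtf1 Med22 (0.845), Aldh5a1 (0.832) and Zbtb7b (0.824). For Slc30a10 they were Hcn3 (0.791), Fgfr1op2 (0.778), 0610030E20Rik (0.764), Selp (0.761) and Smim15 (0.756). Within groups, r was 0.538 to 0.631 for the 3 genes of Slc39a14, 0.595 to 0.720 for those of Mtf1 and 0.384 to 0.540 for those of Slc30a10.

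**Figure D3:**
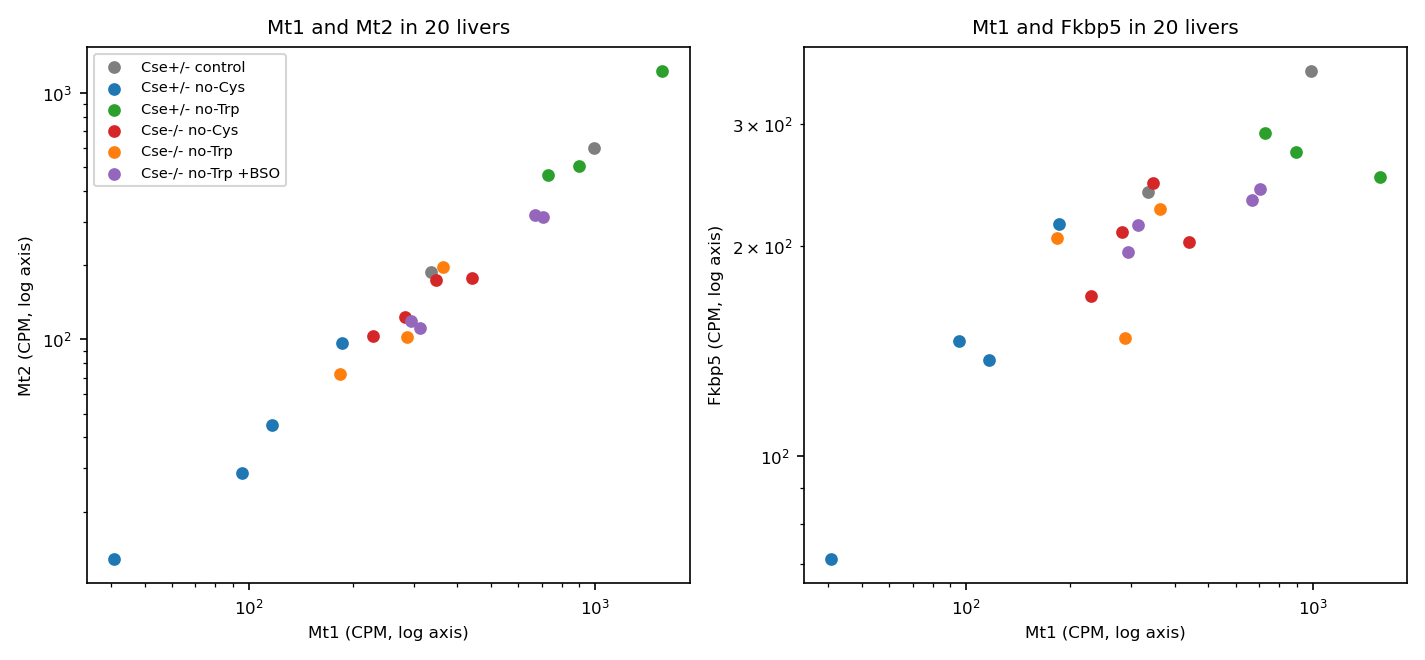
CPM of Mt2 (left) and of Fkbp5 (right) against Mt1 in the 20 livers, on log axes, coloured by genotype and diet. Mt2 follows Mt1 closely (r = 0.990) over all groups, and Fkbp5 more loosely (r = 0.865), with mouse av02 at the lower left of both panels. Fkbp5 was picked for its likeness to the metallothioneins over these livers.

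Of the other zinc transporters, 19 of 21 were tested, and 9 passed in the genotype comparison on the no-Cys diet, 6 higher and 3 lower in Cse-/- livers, where 11.6% of all genes were higher and 12.2% lower. One of the 6, Slc30a2, entered the test only through the Cse-/- livers on this diet in which it was high, so that its call does not count as support. The median log2 difference of the list was -0.10, against -0.0093 over all genes tested. Among the ZIP importers, Slc39a7 (ZIP7), which releases zinc from the endoplasmic reticulum, measured 1.26 to 3.68 CPM in Cse+/- and 3.47 to 5.83 CPM in Cse-/- livers (log2 fold change 1.19, SE 0.282, edgeR adjusted p = 0.00476). Slc39a6 was higher in Cse-/- livers by 0.76, Slc39a13 (ZIP13), of the early secretory pathway, by 0.52, and Slc39a3 by 0.29 on the log2 scale. For Slc39a7 and Slc39a6 the means of these Cse-/- livers (4.77 and 3.47 CPM) were near those of the control diet (4.27 and 3.36 CPM). Those of Cse+/- livers on the no-Cys diet were lower (2.08 and 2.06 CPM). Slc39a4 (ZIP4), the importer of dietary zinc in the gut, fell from 67.8, 76.1, 68.0 and 63.5 CPM to 30.9, 41.3, 28.0 and 40.3 CPM (log2 fold change -0.97, SE 0.140, edgeR adjusted p = 7.61e-05). Slc39a10 was lower by 0.61 on the log2 scale.

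Among the ZnT exporters, Slc30a6 was higher in Cse-/- livers by 0.32 on the log2 scale. Slc30a3, the synaptic vesicle transporter, measured 0.353 to 1.53 CPM in Cse+/- and 0.0738 to 0.293 CPM in Cse-/- livers (log2 fold change -2.26, SE 0.570). In Cse-/- libraries of 12664830 to 15436551 counts these are few reads, so that the size of this difference is uncertain. Slc30a2 had 40 counts in the 4 Cse-/- livers and 1 in the 4 Cse+/- livers, a ratio of 34.7 with a 95% counting interval of 5.88 to 1404. It was below the filter without av05 or av07. The calls of this list depended on single livers, with 4 to 10 passing when 1 was left out, and 5, 4 and 5 without av02, av05 and av07. Slc30a6, Slc39a3 and Slc39a6 each passed in 2 of these 8 fits and Slc39a10 in 3, and Slc30a6, Slc39a3 and Slc39a10 also missed the threshold with no filter or with only the groups compared. Slc30a6 and Slc39a3 missed it with upper-quartile scaling too, and Slc39a1 (-0.23 on the log2 scale, edgeR adjusted p = 0.0656) passed with that scaling and with a mean CPM of at least 1. Slc30a3, Slc39a4, Slc39a7 and Slc39a13 passed in all 8. Slc39a7 and Slc39a10 overlapped between the groups, and the other 7 called transporters did not.

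**Figure D4:**
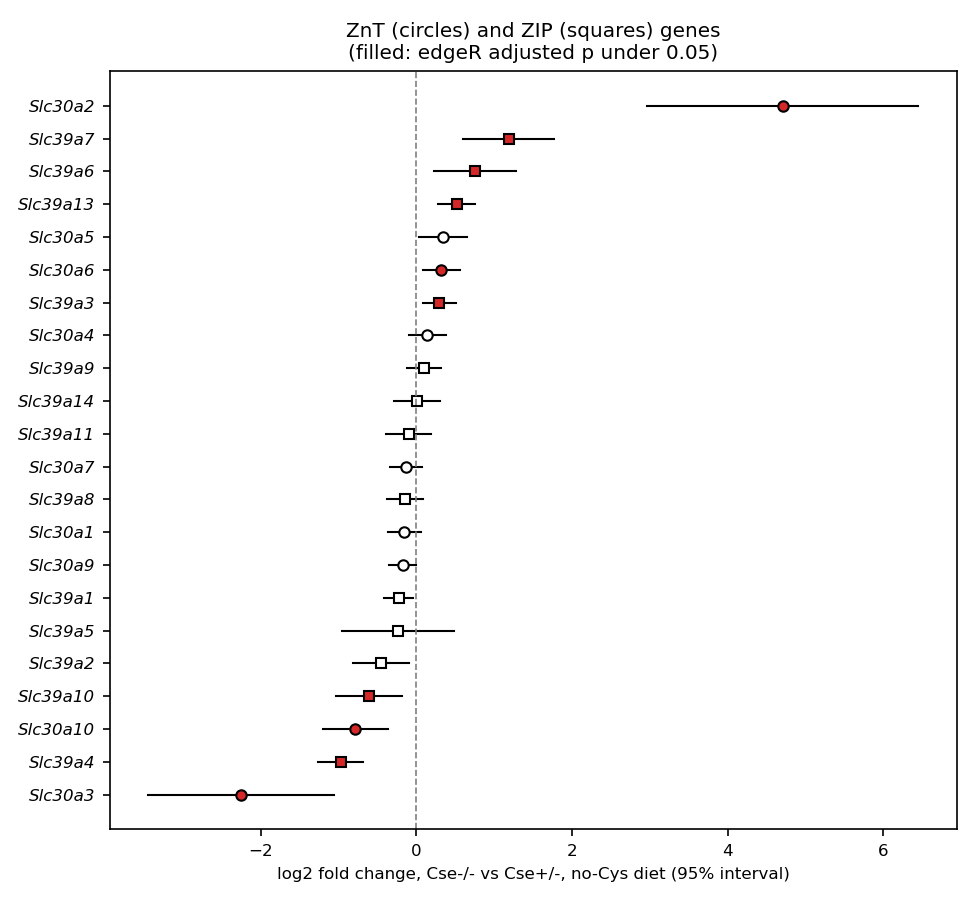
Log2 fold change with 95% interval of the 22 tested ZnT (circles) and ZIP (squares) genes between Cse-/- and Cse+/- livers on the no-Cys diet, with Slc30a1, Slc30a10 and Slc39a14 among them, filled where the edgeR adjusted p was under 0.05. The point of Slc30a2, far to the right, rests on 1 count in Cse+/- livers and is no measure of size. The others range from -2.26 for Slc30a3, which had few counts in Cse-/- livers, to 1.19 for Slc39a7, and most lie within 1 of 0.

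In each of the other comparisons 0 to 2 of the 19 passed. The interaction was called for Slc39a6 (1.36 on the log2 scale) and Slc39a4 (-1.09), against 4.36% of all genes. In Cse+/- livers Slc39a2 was higher on the no-Cys than on the control diet (1.26, against 2.18%), and Slc39a4 was higher (0.79) and Slc39a6 lower (-1.13) on the no-Cys than on the no-Trp diet (against 8.04%). In Cse-/- livers Slc39a2 and Slc39a4 were higher with BSO than on the no-Cys diet (0.95 and 0.54, against 2.75%). By edgeR, 0 passed in the genotype comparison on the no-Trp diet, between the 2 diets in Cse-/- mice, with BSO, and on the no-Trp against the control diet in Cse+/- mice, with 6, 9, 4 and 6 at an unadjusted p under 0.05. Of all genes, 2.64%, 10.4%, 0.793% and 0.0474% passed there. DESeq2 was run on this list for the genotype comparison on the no-Cys diet alone, where it also called 9.

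Lists of other genes that border on metal handling were read in the same comparison of genotypes on the no-Cys diet, in which 23.8% of all genes passed. By edgeR, 0 of 4 tested manganese carriers passed (2 at an unadjusted p under 0.05), and of 10 tested copper genes 1 did, Ccs, the copper chaperone of superoxide dismutase (log2 fold change -0.39). Of 7 NRF2 targets 5 were higher, from Txnrd1 (0.46) to the quinone reductase Nqo1 (2.29). Of 9 glucocorticoid-responsive genes 1 was higher, Zbtb16 (1.66), and 3 were lower, Dusp1 most (-1.61). Of 13 acute phase genes Apcs was higher (1.76) and Orm1 lower (-1.16). The medians of these lists were 0.15, -0.12, 0.65, -0.17 and -0.43 in this order. In the same comparison all 5 red cell genes were lower, with a summed level of 201 to 406 CPM in Cse+/- and 69.1 to 114 CPM in Cse-/- livers, none of them at 0, and of the 6 hepatocyte markers 4 were lower and 1 higher. Of the other cell types, 2 of 6 stellate cell and 1 of 4 cholangiocyte markers were lower, and by edgeR 0 of 6 Kupffer cell markers passed (2 at an unadjusted p under 0.05), with medians of -0.37, -0.75 and -0.33. Of 5 endothelial markers 0 passed by edgeR (2 at an unadjusted p under 0.05), 3 with values below 0 and 2 above (median -0.26). The part of these shifts in the values of the members was not tested.

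Inflammatory signs varied between livers of the same group, and Saa1, an acute phase gene singled out after its values were seen, shows this. In Cse+/- livers on the no-Trp diet it measured 1429 CPM in av17, 465 in av19 and 61.1 in av20, and av17 was also the highest in Mt1, Mt2 and Slc39a14. On the no-Cys diet it measured 729 CPM in av01, the Cse+/- liver with the most Mt1 and Slc39a14 of its group, and 23.7 to 210 CPM in the other 3. In Cse-/- livers on that diet it measured 191 CPM in av08, the highest of its group in Mt1, Mt2 and Slc39a14, and 12.8 to 30.2 CPM in the others. Other livers went the other way: among Cse-/- livers on the no-Trp diet av15 had the least Saa1 (40.8 CPM, against 82.2 and 49.5) and the most Mt1, Mt2 and Slc39a14, and av20 had less Saa1 and more Mt1 than av19. The 4 neutrophil markers, none of them at 0 in all livers, summed to 1.68 to 2.98 CPM in Cse+/- livers on the no-Trp diet and to 0.357 to 0.835 CPM on the control diet. Control livers av21 and av22 had 335 and 992 CPM of Mt1 at Saa1 levels of 31.1 and 48.5 CPM. The part of inflammation in the metallothionein values was not tested.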

How the data were processed

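The authors aligned paired-end reads of poly(A) RNA to GRCm38 with HISAT2 2.1.0 and counted them on genes with HTSeq 0.11.0, and the counts they deposited are raw, with no normalization (annotation and strand setting not given in the sources used here). Columns were assigned to groups through the study's list of mice, and 1 column with no condition was not used. GENCODE symbols were found for 45143 genes. Genes were filtered (filterByExpr, minimum count 10), scaled (TMM) and fitted with edgeR 4.0.16 in R 4.3.3 (quasi-likelihood, 1 mean per group, 20 livers, common dispersion 0.0270), with two-sided p adjusted by Benjamini-Hochberg over 14759 genes, threshold 0.05. SE is the log2 fold change over the root of F. DESeq2 1.42.0, other scalings, filters and samples, and leaving out each liver were the alternatives. Livers of a group differed beyond counting noise (chi-square per gene 9.60 to 64.2 over 25 pairs). Fits were tested on simulated data. The 6 members and all lists were chosen with earlier results of these data known. Beside the members, called zinc transporters, the extremes among called genes of other lists, and the 3 or 5 genes with the highest r to each member are named. Figures were drawn with matplotlib 3.10.9.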

Additional observations from a re-analysis of the deposited data

Results flagged for a closer look

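The genotype effect differed between the no-Cys and the no-Trp diet for 2 members and 2 other zinc transporters, by the interaction test. On the log2 scale the difference was 3.50 for Mt1 and 4.22 for Mt2 (edgeR adjusted p = 0.00445 and 0.00633), -1.09 for Slc39a4 and 1.36 for Slc39a6 (edgeR adjusted p = 0.00618 and 0.0377). For Mt1 and Mt2 the effect was positive without cysteine and negative without tryptophan.

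Of 45 sets of 4 livers of a gene and group, 4 had 1 liver far from the other 3. Chance alone gives about 1 set in 20, a rate that does not apply to Slc30a2, for which 1 count beside 3 livers at 0 stands apart by construction. Slc30a1 was 31.5 CPM in mouse av07, the highest of the Cse-/- livers on the no-Cys diet. Slc39a14 was 318 CPM in av01, the highest of the Cse+/- livers on that diet. Slc30a2 was 0.0706 CPM in av02, its only count among those livers. Slc39a6 was 4.29 CPM in av10, the highest liver with BSO.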

How the results depend on the processing

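No paired analysis was possible because the columns of the count table carry no replicate numbers. RLE or upper-quartile scaling and a mean CPM of at least 1 left the number of members called in each comparison as it was, as did DESeq2 and no filter apart from Slc39a14, which they added in Cse-/- against Cse+/- livers on the no-Trp diet and in Cse+/- livers on the no-Cys against the control diet. At an adjusted p under 0.01, the members called were 1 (genotype, no-Cys), 0 (genotype, no-Trp), 0 (BSO against no-Cys), 2 (no-Cys against control) and 3 (no-Cys against no-Trp in Cse+/-), and 5 listed zinc transporters passed in the first. With only the groups compared in the fit, they were 1 (genotype, no-Trp), 1 (no-Cys against control) and 4 zinc transporters. Leaving out 1 liver gave 2 to 3 members for genotype on the no-Cys diet, 0 to 1 on the no-Trp diet, 0 to 1 for BSO against no-Cys, 0 to 4 for no-Cys against control, and 4 to 10 zinc transporters. Causes were not tested.

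Uncalled values near 0 changed sign. On the no-Cys diet, the genotype difference of Mtf1 was -0.012 with upper-quartile scaling and -0.0051 with a mean CPM of at least 1, and that of Slc39a14 was -0.0069 with upper-quartile scaling. Without 1 liver, that of Mtf1 ran from -0.027 to 0.066, of Slc39a14 from -0.078 to 0.096, of Slc39a5 from -0.65 to 0.020 and of Slc39a11 from -0.19 to 0.012. Between the no-Cys and no-Trp diets in Cse-/- livers, ranges were -0.011 to 0.46 for Mt1, -0.059 to 0.71 for Mt2, -0.021 to 0.016 for Mtf1, -0.18 to 0.21 for Slc30a10 and -0.16 to 0.050 for Slc39a14. Between the no-Trp and control diets in Cse+/- livers, they were -0.015 to 0.085 for Mtf1, -0.10 to 0.14 for Slc30a1 and -0.23 to 0.34 for Slc39a14. By Spearman's rho in place of r, Pex26 and Fkbp5 stayed among the 5 genes most like Mt1, Fkbp5 among the 3 most like Mt2, Med22 and Aldh5a1 for Mtf1, Rell1 and Pnrc1 for Slc30a1, Selp for Slc30a10, and none of the 3 for Slc39a14. Slc30a8 and Slc39a12 had too few counts to be tested, and Slc30a2 had 1 count over the 4 Cse+/- livers on the no-Cys diet.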
